A study of Mus musculus with 13 samples.

Results

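The skeletal myosin heavy chains are 6 of the 17097 genes with a probe set of their own on this array: Myh1, Myh2 and Myh4 of adult fast fibres, Myh7 of slow fibres, Myh3 of embryonic muscle and Myh8 of perinatal muscle. All probe sets that the array's annotation gives to these genes alone were taken, which made 11 of the 45037 probe sets that are no control. Myh1 had 4 probe sets, Myh4 and Myh7 had 2 each, and Myh2, Myh3 and Myh8 had 1 each. RNA of the quadriceps, a thigh muscle, was measured in 13 male C57Bl/6 mice aged 4 months on standard chow, with 1 Affymetrix mouse genome array per mouse. There were 3 SKM-KO and 3 C mice, and 4 SKM-Tg and 3 Wt mice. The study's design names loss and gain of function of DOR, an earlier name of Trp53inp2, in skeletal muscle, so SKM-KO was read as the loss and SKM-Tg as the gain. The labels give neither the transgene's promoter nor the Cre line. They also do not say which control belongs to which mouse line, and C was set against SKM-KO and Wt against SKM-Tg from the names and the design.

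A myosin heavy chain is the motor of the thick filament: its head splits ATP and pulls on actin, and its tail packs into the filament. A fibre's speed follows its heavy chain, with the Myh7 protein (type I) slow, Myh2 (IIa) fast and oxidative, Myh1 (IIx) faster and Myh4 (IIb) fastest in the mouse. The mouse quadriceps is mainly a fast muscle with few slow fibres. Myh3 and Myh8 are used before and around birth and return in regenerating fibres.

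In the RefSeq annotation (GRCm38.p6), 5 of the 6 genes lie side by side on chromosome 11 in the order Myh3, Myh2, Myh1, Myh4, Myh8, and Myh7 lies on chromosome 14 next to Myh6, its cardiac relative. All 6 genes matched an entry of the RefSeq promoter table, which runs from 250 bases before to 50 bases after each start. The promoters of Myh1, Myh2, Myh4 and Myh8 are shown because these neighbours share stretches of sequence, and how far their signals moved together was measured here. Each holds the run TTCTAATTATATCC and, upstream of it, the run TCAAATTAT. Capitals mark the longer run and the 15 bases that begin with the shorter one. All 4 are on the plus strand.

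Myh2, chr11:67170844-67170925: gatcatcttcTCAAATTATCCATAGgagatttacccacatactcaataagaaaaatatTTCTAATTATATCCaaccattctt
Myh1, chr11:67199876-67199965: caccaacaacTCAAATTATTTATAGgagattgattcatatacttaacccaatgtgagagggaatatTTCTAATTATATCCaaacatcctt
Myh4, chr11:67237615-67237677: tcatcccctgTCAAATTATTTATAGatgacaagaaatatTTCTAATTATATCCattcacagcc
Myh8, chr11:67277010-67277093: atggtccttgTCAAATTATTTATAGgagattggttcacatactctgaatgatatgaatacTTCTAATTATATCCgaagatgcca

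Searched on both strands, TTCTAATTATATCC was found in 4 of the 32851 promoters of the table, which are these 4, and TCAAATTAT in 59 (0.180%). Both runs were picked after the sequences had been read. The marked 15 bases of Myh1, Myh4 and Myh8, but not those of Myh2, hold a match to the MEF2 motif, which overlaps the shorter run and was found in 3.19% of all promoters. Neither run is in the windows of Myh3 or Myh7. The Myh7 window is shown for contrast, as the slow gene on another chromosome. Its 100 bases before the more downstream of 2 annotated starts, on the minus strand, hold an E-box (CANNTG, in 72.3% of promoters on either strand), which is in capitals.

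Myh7, chr14:54994550-54994649: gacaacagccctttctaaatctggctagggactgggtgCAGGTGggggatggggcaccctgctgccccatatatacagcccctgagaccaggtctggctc

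The values are log2 signals, so a difference of 1 is a doubling, and a level of one probe set cannot be set against that of another. Differences were tested with limma in 1 fit of all 13 arrays, with Benjamini-Hochberg adjustment over all 45037 probe sets and a threshold of 0.05. The targeted gene was checked first. Trp53inp2 had 8.58, 8.79 and 8.99 in SKM-KO muscles, against 11.06, 11.19 and 11.15 in C muscles, and fell by 2.35 (SE 0.13, adjusted p = 1.74e-05). Its SKM-Tg values (11.03 to 11.28) lay within the range of the Wt values (11.001 to 11.46), and a gain of its RNA in the muscles labelled SKM-Tg was not seen with this probe set (difference -0.06, 95% interval -0.32 to 0.20, adjusted p = 0.921). Of the arrays, Wt 2 stood apart, over the probe sets with a mean at or above the median of all probe sets. Its median absolute deviation from each probe set's median over the 13 arrays was 0.404, against 0.0765 to 0.212 on the others. Its correlations with the other arrays were 0.900 to 0.972. Of the marker lists, the summed signal of the muscle fibre markers (4 of 5 measured) was 14.27 to 14.44 on all arrays, and the mean over arrays of each of the 4 heart muscle markers measured was under the median of all probe sets. The summed signal of the fat cell markers (4 of 6 measured, and Lep alone with a mean under that median) was 7.90 to 11.03 in SKM-KO, 8.11 to 9.20 in C, 10.16 to 11.94 in SKM-Tg and 8.18 to 10.84 in Wt muscles. Of the 22 markers of macrophages, fibroblasts, Schwann cells, endothelium and smooth muscle measured, 0 were called in any comparison. Their unadjusted p was under 0.05 for 0 in SKM-KO minus C, for 8 in Wt minus C and for 3 in SKM-Tg minus Wt. Those 3 were Acta2 of smooth muscle (-0.54, SE 0.16), Cd68 of macrophages (-0.54, SE 0.22) and Kdr of endothelium (-0.48, SE 0.19). Over all probe sets the shares under 0.05 were 0.908%, 17.4% and 6.23%, in the same order of comparisons. In whole muscle, fewer fibres of a type and less RNA per fibre cannot be told apart.

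Across all comparisons, none of the 11 myosin heavy chain probe sets passed the threshold. By their brightest probe sets, the signals of the adult fast genes varied least between mice and that of Myh7 most. The fast genes' brightest probe sets have means of 12.45 to 12.61, near the top of the array's scale, where differences can be compressed. A small spread or a narrow interval there sets no limit on the change in RNA. The plot of the members by array shows the spread of each probe set on 1 scale.

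**Figure D1:**
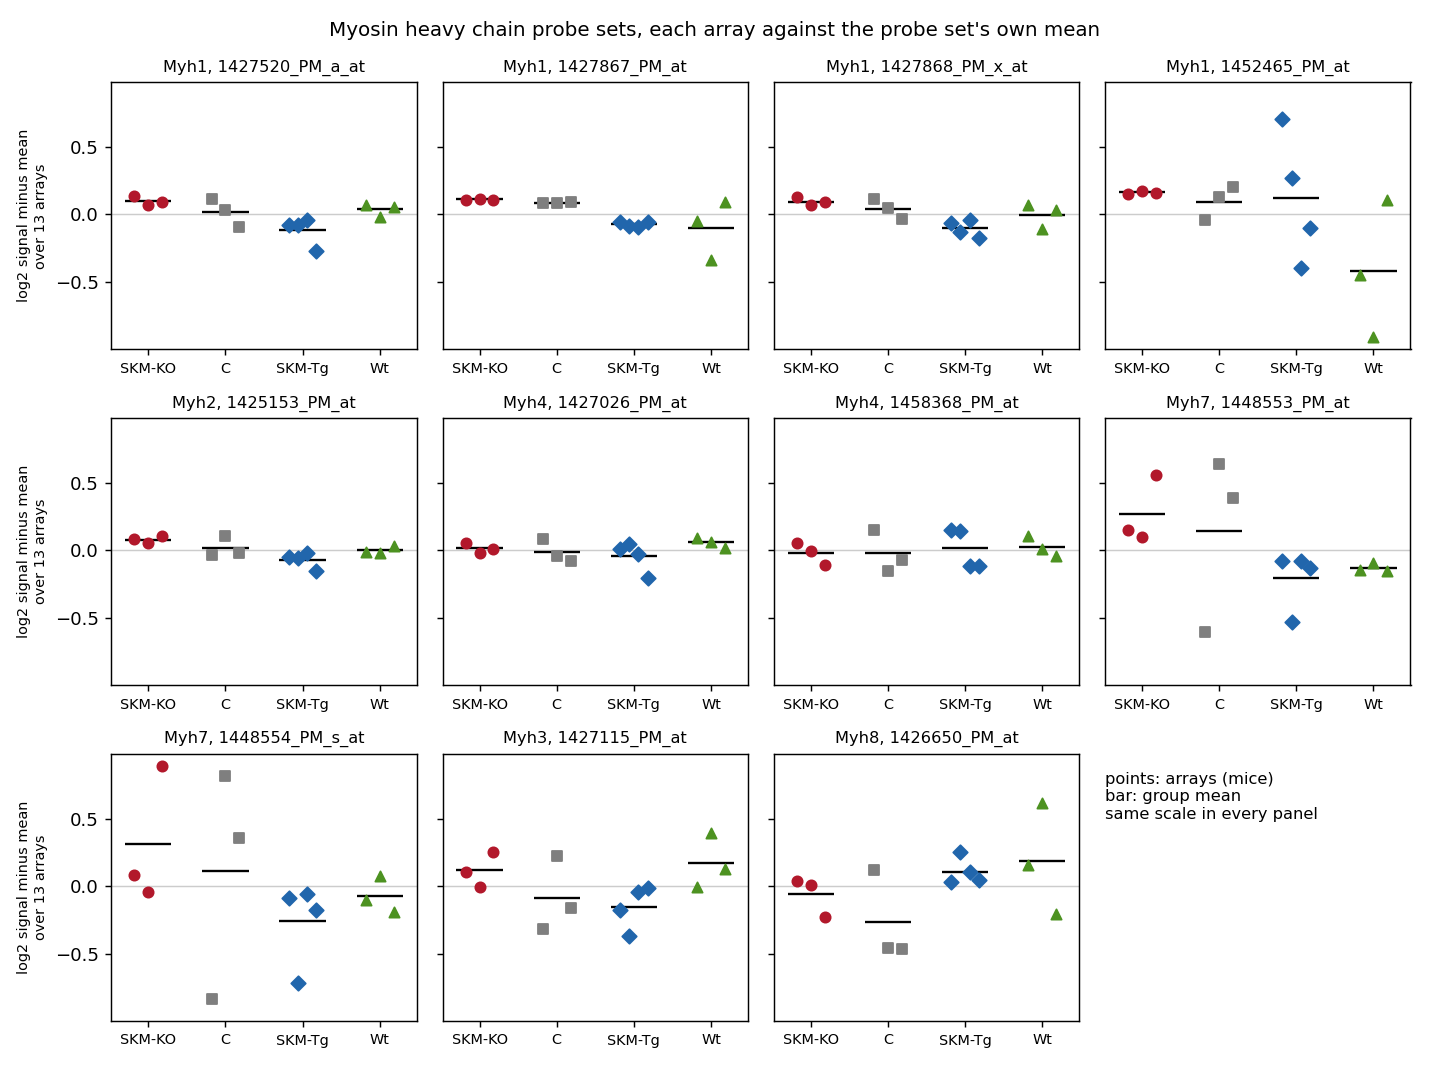
Each panel shows 1 of the 11 myosin heavy chain probe sets. The y axis is the log2 signal of an array minus that probe set's mean over the 13 arrays, points are arrays (mice) in the groups SKM-KO, C, SKM-Tg and Wt, and bars are group means. Myh2 stays within 0.26 log2 units over all arrays, while the 2 Myh7 probe sets span 1.24 and 1.72 units, with C 1 and SKM-Tg 2 lowest.

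Myh2, the motor of fast oxidative fibres, had the smallest range of signal of the 11 probe sets, read near the top of the scale. Its signal was 12.69, 12.66 and 12.72 in SKM-KO muscles, against 12.58, 12.72 and 12.59 in C muscles. The 2 groups overlapped, with C 2 the highest of all. The difference was 0.06 (SE 0.07, 95% interval -0.08 to 0.21), which is 1.04-fold in signal with an interval of 0.943 to 1.16. In SKM-Tg muscles it was 12.56, 12.56, 12.59 and 12.46, against 12.60, 12.59 and 12.64 in Wt muscles. All 4 SKM-Tg values lay below the 3 Wt values, by as little as 0.0011 in the closest pair, and the mean difference was -0.07 (95% interval -0.21 to 0.07, adjusted p = 0.814). By group mean the order was SKM-KO (12.69), C (12.63), Wt (12.61) and SKM-Tg (12.54), and the ranges of neighbours in it overlapped except those of Wt and SKM-Tg.

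Myh4, the motor of the fastest fibres, was read by 2 probe sets. The brighter one (1427026_PM_at) had 12.61, 12.53 and 12.56 in SKM-KO muscles, against 12.64, 12.51 and 12.48 in C muscles. In SKM-Tg muscles it had 12.56, 12.60, 12.52 and 12.35, against 12.65, 12.62 and 12.57 in Wt muscles. Groups overlapped in both comparisons, and SKM-Tg 4 was the lowest of all 13 muscles. The differences were 0.03 for SKM-KO minus C (SE 0.08, 95% interval -0.15 to 0.20) and -0.10 for SKM-Tg minus Wt (SE 0.07, 95% interval -0.26 to 0.06). The other probe set (1458368_PM_at) ranged from 11.95 to 12.25 over all muscles, and its differences were 0.00 (95% interval -0.23 to 0.23) and -0.01 (95% interval -0.22 to 0.21). Both of these changed sign in some alternatives. The group order by mean of the brighter probe set was Wt (12.61), SKM-KO (12.57), C (12.54) and SKM-Tg (12.51), with every pair of neighbours overlapping.

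Myh1, the IIx motor, had 4 probe sets that did not move alike. The brightest (1427867_PM_at) had 12.56, 12.57 and 12.56 in SKM-KO muscles, against 12.53, 12.54 and 12.54 in C muscles. The SKM-KO and C values did not overlap, but were all within 0.034 of each other, and the difference was 0.02 (SE 0.09, 95% interval -0.18 to 0.22). It had 12.40, 12.36, 12.35 and 12.40 in SKM-Tg muscles, against 12.40, 12.12 and 12.54 in Wt muscles, where Wt 2 was the lowest of all muscles. The SKM-Tg minus Wt difference was 0.03 (95% interval -0.16 to 0.21), and -0.09 without Wt 2. The group order was SKM-KO (12.56), C (12.54), SKM-Tg (12.38) and Wt (12.35). Of its neighbours, SKM-Tg and Wt overlapped, and C and SKM-Tg, which were not tested against each other, did not.

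A further pair of Myh1 probe sets moved together (r = 0.92 over 13 arrays). The first (1427520_PM_a_at) had 11.84, 11.84, 11.88 and 11.65 in SKM-Tg muscles, against 11.99, 11.90 and 11.97 in Wt muscles. All SKM-Tg values lay below all Wt values, with a difference of -0.15 (SE 0.08, 95% interval -0.32 to 0.01, adjusted p = 0.777), or 0.900-fold. Its SKM-KO values were 12.06, 11.99 and 12.01, against 12.04, 11.95 and 11.83 in C muscles, an overlap with a difference of 0.08 (95% interval -0.09 to 0.26). The second (1427868_PM_x_at), some of whose probes can match other genes by its suffix, differed by 0.05 for SKM-KO minus C (95% interval -0.11 to 0.21) and by -0.10 for SKM-Tg minus Wt (95% interval -0.25 to 0.05).

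The dimmest Myh1 probe set (1452465_PM_at) varied most and went the other way in SKM-Tg muscles. It had 8.85, 8.42, 7.75 and 8.05 there, against 7.70, 7.24 and 8.26 in Wt muscles, and the groups overlapped. The difference was 0.54 (SE 0.25, 95% interval -0.01 to 1.08, adjusted p = 0.777), and 0.29 without Wt 2. Its SKM-KO values (8.30, 8.32 and 8.31) lay within the C values (8.10, 8.28 and 8.35), a difference of 0.07 (95% interval -0.51 to 0.65). It correlated at 0.64 with the brightest Myh1 probe set and at -0.03 with 1427520_PM_a_at over the 13 arrays. A statement about Myh1 in SKM-Tg muscles therefore depends on the probe set read.

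**Figure D2:**
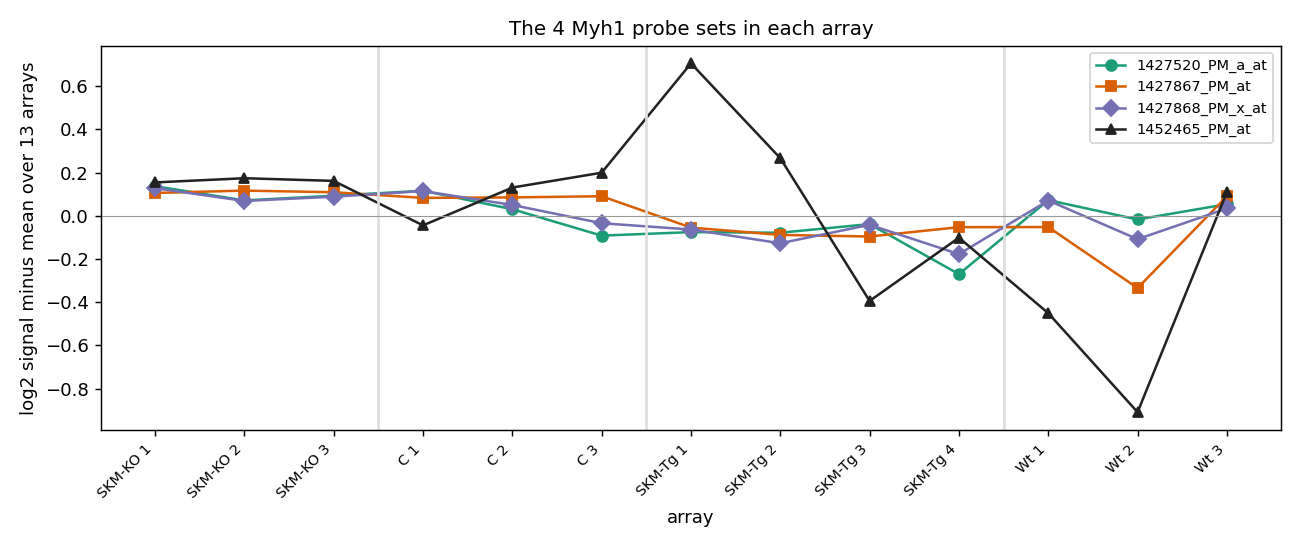
The y axis is the log2 signal minus the probe set's mean over 13 arrays, the x axis lists the arrays by group, and each line is 1 of the 4 Myh1 probe sets. Probe set 1452465_PM_at spans 1.61 log2 units with its low in Wt 2 and its high in SKM-Tg 1, against 0.31 to 0.45 units for the other 3.

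Myh7, the slow motor, had the widest spread over the mice of the genes' brightest probe sets. Its brighter probe set (1448553_PM_at) had 11.48, 11.42 and 11.89 in SKM-KO muscles, against 10.72, 11.97 and 11.72 in C muscles. The C group held both the lowest and the highest of all 13 values, and the SKM-KO values lay inside its range. In SKM-Tg muscles the signal was 11.25, 10.80, 11.25 and 11.20, against 11.18, 11.23 and 11.18 in Wt muscles. SKM-Tg 2 was low, and the other SKM-Tg muscles lay within or just above the Wt range.

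The Myh7 differences were 0.13 for SKM-KO minus C (SE 0.26, 95% interval -0.44 to 0.69) and -0.07 for SKM-Tg minus Wt (SE 0.24, 95% interval -0.60 to 0.45). As folds, the first is 1.09 with an interval of 0.740 to 1.61, and the second is 0.950 with an interval of 0.660 to 1.37. Array C 1 decided the first of these: without it the difference was -0.25 (95% interval -0.61 to 0.12). The second probe set (1448554_PM_s_at), whose suffix marks probes that can match several genes, had 10.29, 10.17 and 11.10 in SKM-KO muscles, against 9.38, 11.02 and 10.57 in C muscles. It had 10.12, 9.49, 10.15 and 10.03 in SKM-Tg muscles, against 10.10, 10.29 and 10.02 in Wt muscles. The same 2 muscles, C 1 and SKM-Tg 2, were its lowest, and it followed the brighter probe set at r = 0.98. By group mean the brighter probe set ran SKM-KO (11.60), C (11.47), Wt (11.20) and SKM-Tg (11.12), with every pair of neighbours overlapping.

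The spread of Myh7 within groups was large for probe sets of its brightness. Its residual SD was 0.36, higher than in 98.1% of the 480 probe sets whose mean lay within 0.5 of its own, and that of the second probe set was 0.50, higher than in 98.8% of 1043. Myh2 had a residual SD of 0.05, higher than in 19.3% of 57 such probe sets, while the brightest probe set of Myh1 had 0.10, higher than in 83.3% of 96, and that of Myh4 0.08, higher than in 66.7% of 72. These are descriptions of the arrays, with no test.

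Myh3, the embryonic isoform, was read by 1 probe set with a signal of 6.29 to 7.06. It had 6.49, 6.29, 6.62 and 6.65 in SKM-Tg muscles, against 6.66, 7.06 and 6.79 in Wt muscles, so that all SKM-Tg values lay below all Wt values, the closest pair by 0.013. The difference of -0.33 (SE 0.14, 95% interval -0.63 to -0.02), or 0.798-fold, had an unadjusted p of 0.039 in limma and an adjusted p of 0.777. Without Wt 2, the highest array, it was -0.21 (95% interval -0.53 to 0.11). In SKM-KO muscles Myh3 had 6.76, 6.66 and 6.92, against 6.35, 6.89 and 6.50 in C muscles. These overlapped, with a difference of 0.20 (SE 0.15, 95% interval -0.12 to 0.53). The group order was Wt (6.84), SKM-KO (6.78), C (6.58) and SKM-Tg (6.51), each overlapping the next.

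Myh8, the perinatal isoform, had the dimmest probe set, at 4.78 to 5.86. Its mean of 5.24 was just above the median of the means of all probe sets (4.90), which all 11 members passed. It had 5.28, 5.25 and 5.02 in SKM-KO muscles, against 5.36, 4.79 and 4.78 in C muscles. C 1 was above all SKM-KO muscles and the other 2 C muscles were below them, with a difference of 0.21 (SE 0.20, 95% interval -0.22 to 0.63). It had 5.28, 5.49, 5.35 and 5.29 in SKM-Tg muscles, against 5.40, 5.86 and 5.03 in Wt muscles. The Wt muscles spanned the SKM-Tg muscles on both sides, and the difference was -0.08 (SE 0.18, 95% interval -0.48 to 0.32). The group order was Wt (5.43), SKM-Tg (5.35), SKM-KO (5.18) and C (4.98), each overlapping the next.

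Counted over the members, 0 of 11 probe sets were called for SKM-KO minus C, where 0.00666% of all probe sets (3) were. No member had an unadjusted p under 0.05, against 0.908% of all probe sets. Of the 11, 1 had groups that did not overlap, Myh1 1427867_PM_at, against 7.13% of all probe sets. All 11 differences, and those of all 6 genes, were above 0, as were 50.7% of all probe sets and 54.0% of the 10411 genes above the median signal, but each interval covered 0. Their median was 0.07, and the probe sets of a gene share its RNA and are not separate evidence. The lowest and highest of the 11 were 0.00 (Myh4) and 0.21 (Myh8).

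For SKM-Tg minus Wt, 0 of 11 were called, as were 0% of all probe sets in limma. Myh3 alone had an unadjusted p under 0.05, against 6.23% of all probe sets and 3.79% counted as lower. Of the members, 3 of 11 probe sets had groups that did not overlap (Myh1 1427520_PM_a_at, Myh2 and Myh3, all lower in SKM-Tg), against 3.97% of all and 1.90% counted as lower. Of the 11, 9 differences were below 0 and 2, both of Myh1, were above, against 47.8% above 0 over all probe sets and 37.8% over the 10411 genes above the median signal. The members' median was -0.08, and that of these genes -0.05. The fat cell signal also had unlike, overlapping ranges in these groups: Adipoq, the adiponectin of fat cells, had 7.66 to 9.84 in SKM-Tg muscles, against 5.12 to 8.75 in Wt muscles. The part of fat tissue in the members' differences was not tested.

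**Figure D3:**
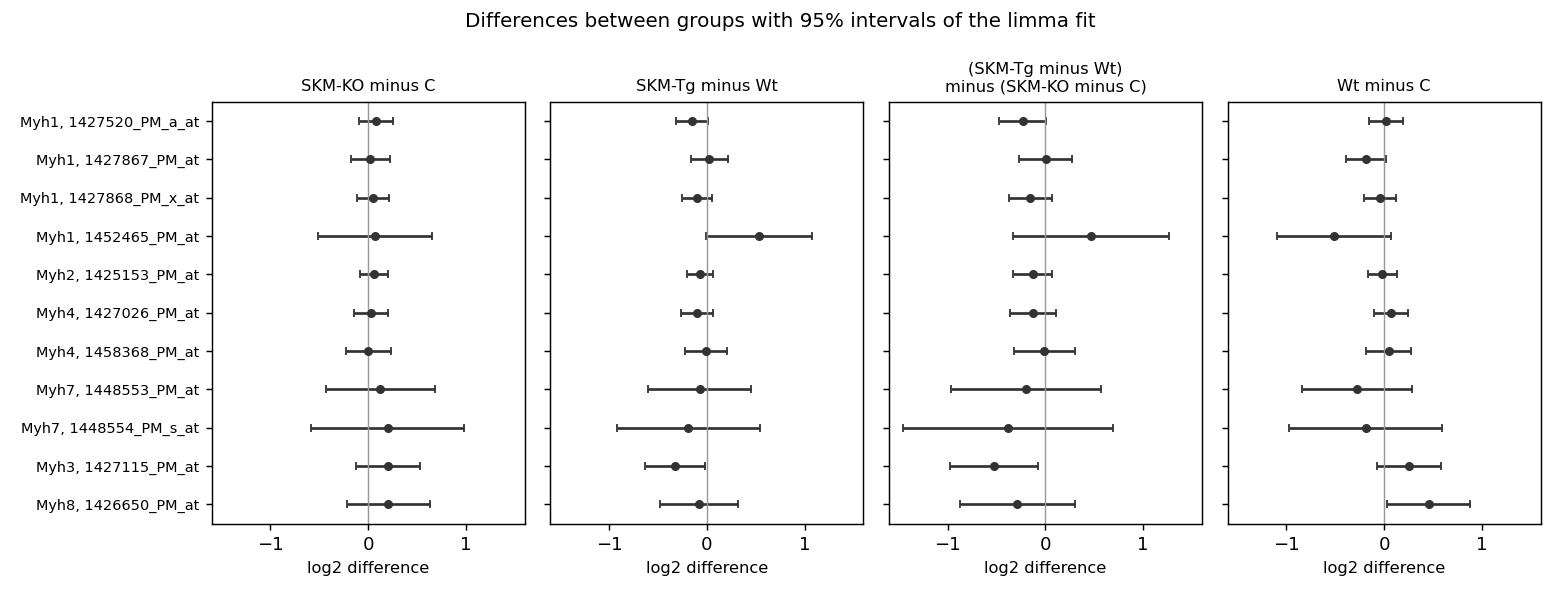
Points are the fitted log2 differences of the 11 probe sets, 1 row each, in 4 comparisons, and bars are 95% intervals of the limma fit. Every interval covers 0 except Myh3 in SKM-Tg minus Wt and in the difference of the effects, and Myh8 in Wt minus C, and none of these 3 passed the adjusted threshold.

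Whether the members differed between the SKM-Tg and SKM-KO comparisons was asked by the difference of the effects, SKM-Tg minus Wt less SKM-KO minus C. It called 0 of 11 members, against 0.00444% of all probe sets (2). Myh3 had the lowest unadjusted p, 0.025, with a difference of -0.53 (SE 0.21, 95% interval -0.98 to -0.08, adjusted p = 0.998 in limma), and 3.06% of all probe sets had an unadjusted p under 0.05. Without Wt 2 it was -0.42 (95% interval -0.86 to 0.02). For Myh7 it was -0.20 (95% interval -0.97 to 0.57), for Myh2 -0.13 (95% interval -0.33 to 0.07), and for Myh1 1427867_PM_at 0.00 (95% interval -0.27 to 0.28).

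The controls, Wt and C, are both without the tested alteration as far as the names say, and share those arrays with the comparisons above. Wt minus C called 0 of 11 members and 0.00888% of all probe sets (4). No member's groups were apart, against 16.5% of all probe sets. Myh8 had an unadjusted p of 0.039 and an adjusted p of 0.269 in limma, with a difference of 0.46 (SE 0.20, 95% interval 0.03 to 0.88), while 17.4% of all probe sets had an unadjusted p under 0.05. Without Wt 2 the Myh8 difference was 0.24. Myh1 1452465_PM_at differed by -0.51 (95% interval -1.09 to 0.07) and 1427867_PM_at by -0.18 (95% interval -0.39 to 0.02). Myh7 differed by -0.27 (95% interval -0.84 to 0.29), and by -0.65 without C 1. Myh2 differed by -0.02 (95% interval -0.16 to 0.13), the brighter Myh4 probe set by 0.07 (95% interval -0.10 to 0.24), and Myh3 by 0.26 (95% interval -0.07 to 0.59).

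The muscles low in Myh7 were low in other slow fibre genes too. All 9 genes of the slow fibre list were measured, among them the slow troponins Tnnt1, Tnni1 and Tnnc1, the slow calcium pump Atp2a2 and the slow tropomyosin Tpm3. In C 1, all 9 lay below their own mean over the arrays and 6 were at their lowest. In SKM-Tg 2 all 9 were below and 2 at their lowest. All 9 were also below in Wt 1 and SKM-Tg 1, where none was at its lowest. Myh7 deviated from its own mean by -0.15 in Wt 1 and -0.08 in SKM-Tg 1, against -0.61 in C 1 and -0.53 in SKM-Tg 2. In C 2 and SKM-KO 3, none was below. The median deviation of the 9 genes was -0.54 in C 1 and -0.47 in SKM-Tg 2, and 0.52 in C 2 and 0.57 in SKM-KO 3.

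Over the 13 arrays, the 9 genes correlated with Myh7 at a median r of 0.92 (0.44 for Ankrd2 to 0.98 for Tnnt1) and a median Spearman rho of 0.84. With group means taken out, the median r was 0.90 (0.46 to 0.99). Without the 2 arrays farthest from the median of Myh7, SKM-KO 3 and C 2, it was 0.84 (0.24 for Csrp3 to 0.96 for Tnnt1). The points are the same 13 muscles, normalized together, so the correlations describe these muscles and carry no test. Myh4 ran against Myh7 at r = -0.33 with its brighter probe set and at -0.69 with the other.

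**Figure D4:**
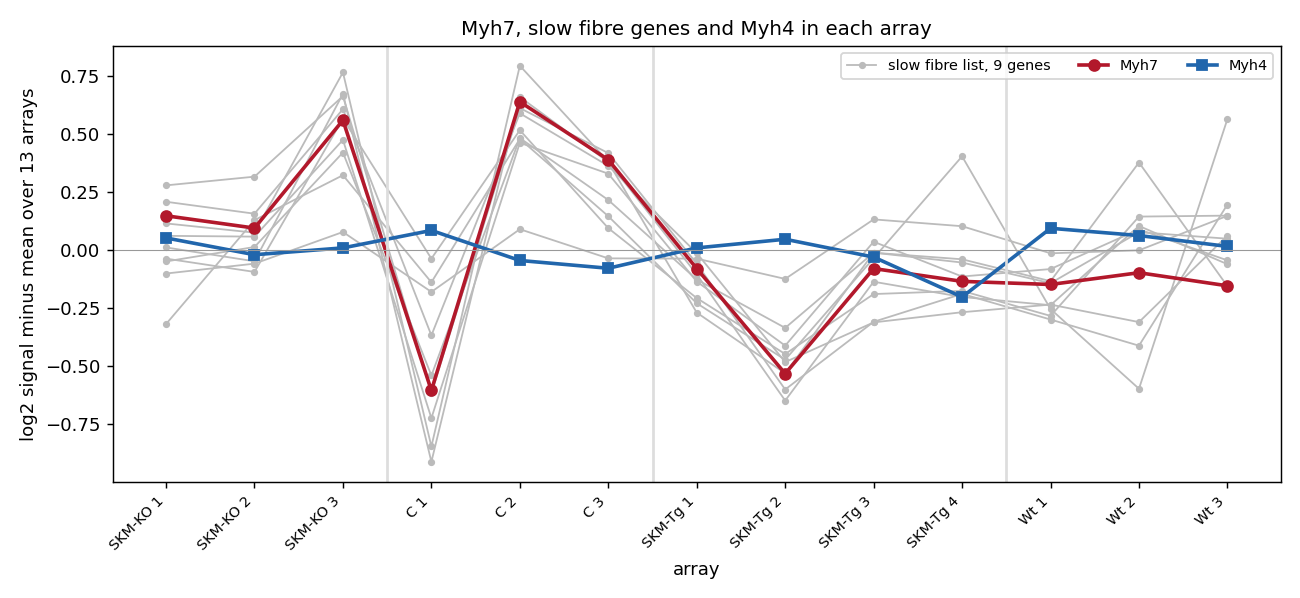
The y axis is the log2 signal minus the gene's mean over 13 arrays, and the x axis lists the arrays by group. The red line is Myh7, the grey lines are the 9 genes of the slow fibre list and the blue line is Myh4. Myh7 and most slow genes dip together in C 1 and SKM-Tg 2 and peak in C 2 and SKM-KO 3, where Myh4 stays between -0.20 and 0.09 on all arrays.

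Among 10405 other genes above the median signal, the 5 most correlated with Myh7 were Tnnt1 (r = 0.98), Zdhhc23 (0.96), Tnnc1 (0.96), Myoz2 (0.94) and Myl2 (0.93). Myoz2 is a Z-disc protein of slow and cardiac fibres, and Myl2 is the regulatory light chain that sits on the Myh7 protein. With group means taken out they were Tnnt1 (0.99), Tnnc1 (0.98), Myl2 (0.98), Myoz2 (0.97) and 1700088E04Rik (0.95). The 19 fibre type regulators measured correlated with Myh7 at a median of 0.38 (-0.72 to 0.81), and of 0.20 with group means taken out (-0.81 to 0.79). Among them, picked after their values were seen, Esrrg, an oestrogen-related receptor, correlated with Myh7 at 0.81, Prox1 at 0.77 and Rcan1, a target of calcineurin signalling, at 0.74, and Sox6, a repressor of slow genes, at -0.72. With group means taken out these were 0.79, 0.70, 0.79 and -0.59, and the lowest was Maf at -0.81 (-0.45 before). Ppargc1b and Nfatc1 correlated at -0.11 and 0.38.

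The 5 nearest genes of Myh4 held 2 of fast fibres, Tnnt3 and Pvalb. They were Tnnt3, the fast troponin T (r = 0.93), Tonsl (0.92), Zkscan8 (0.91), Pvalb, the calcium buffer of fast fibres (0.91), and Pde6h (0.88). The 8 measured fast fibre genes correlated with Myh4 at a median of 0.85 (0.41 for Actn3 to 0.93 for Tnnt3). The other fast heavy chains did not share this. The same genes correlated with the brightest Myh1 probe set at a median of -0.46 (-0.77 to -0.08) and with Myh2 at 0.06 (-0.62 to 0.58). With the perinatal Myh8 their median was 0.65 (0.18 to 0.94). With group means taken out, the 5 nearest genes of Myh4 were Nfasc (0.94), Tnnt3 (0.94), Pvalb (0.93), Tonsl (0.92) and 1110032F04Rik (0.92). Myh4 is read near the top of the scale. It deviated from its own mean by -0.20 in SKM-Tg 4, and by -0.08 to 0.09 on the other arrays. The part of SKM-Tg 4 in these correlations was not tested.

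The nearest genes of the other members were less of 1 kind. For Myh1 1427867_PM_at they were Map4k5 (r = 0.99), Tmx1 (0.99), Tmc7 (0.98), Mfn1 (0.98) and Atp6ap2 (0.98), and for Myh2 they were Ppp6r3 (0.88), Atp5a1 (0.88), Hrc (0.87), Lysmd3 (0.86) and Prpf6 (0.86). Myh1 1427867_PM_at was lowest on Wt 2, the array that stood apart, and the part of that array in its correlations was not tested. For Myh3 they were Actn2, a Z-disc actinin (0.89), Rdh13 (0.89), Perm1 (0.89), Dffa (0.87) and Ilvbl (0.87), and with group means taken out the first was Myl10 (0.93). For Myh8 they were Casq1, the calcium store protein of fast fibres (0.94), 3000002C10Rik (0.92), Cacng6 (0.92), Myoz3 (0.92) and Rtkn (0.92). Myh8 was highest on Wt 2 and ran against Myh1 1427867_PM_at at -0.79.

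Among the 4 neighbours whose promoters are shown, 3 of the 6 pairs of brightest probe sets correlated above 0 and 3 below. Myh2 and Myh1 correlated at 0.52, Myh8 and Myh4 at 0.42, and Myh2 and Myh4 at 0.35. Myh1 and Myh4 correlated at -0.12, Myh2 and Myh8 at -0.43, and Myh1 and Myh8 at -0.79. Several of these depend on the probe set. Against the brighter Myh4 probe set, the other Myh1 probe sets correlated at 0.75 (1427520_PM_a_at), 0.50 (1427868_PM_x_at) and -0.17 (1452465_PM_at). Against Myh8 they correlated at -0.05, -0.34 and -0.57. With Myh4 1458368_PM_at, Myh2 correlated at -0.26 and Myh8 at 0.52. Myh3 correlated at 0.59 with Myh7, from another chromosome. With Myh4 it correlated at -0.02 by the brighter Myh4 probe set and at -0.56 by the other.

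Ratios of isoforms within an array show unequal change of a pair, and were centred on their mean over the arrays. Myh7 over Myh4 was 0.10, 0.11 and 0.55 log2 units in SKM-KO muscles, against -0.69, 0.68 and 0.47 in C muscles. It was -0.09, -0.58, -0.05 and 0.07 in SKM-Tg muscles, against -0.24, -0.16 and -0.17 in Wt muscles. The C muscles spanned the SKM-KO muscles, and SKM-Tg muscles lay on both sides of the Wt muscles. With these brightest probe sets, the group differences were 0.10 for SKM-KO minus C (pooled SD 0.55) and 0.03 for SKM-Tg minus Wt (pooled SD 0.20), smaller than the spread. Every other pair of Myh7 and Myh4 probe sets gave a SKM-Tg minus Wt difference below 0. Myh7 over Myh2 showed the same 2 low muscles, at -0.57 in C 1 and -0.48 in SKM-Tg 2. Myh2 over Myh4 stayed within -0.12 and 0.15 on all arrays, with differences of 0.04 and 0.03. Both are read near the top of the scale, so this narrow range sets no limit on unequal change of their RNA. With Myh4 1458368_PM_at, the centred ratio ran from -0.20 in SKM-Tg 1 to 0.26 in C 2.

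**Figure D5:**
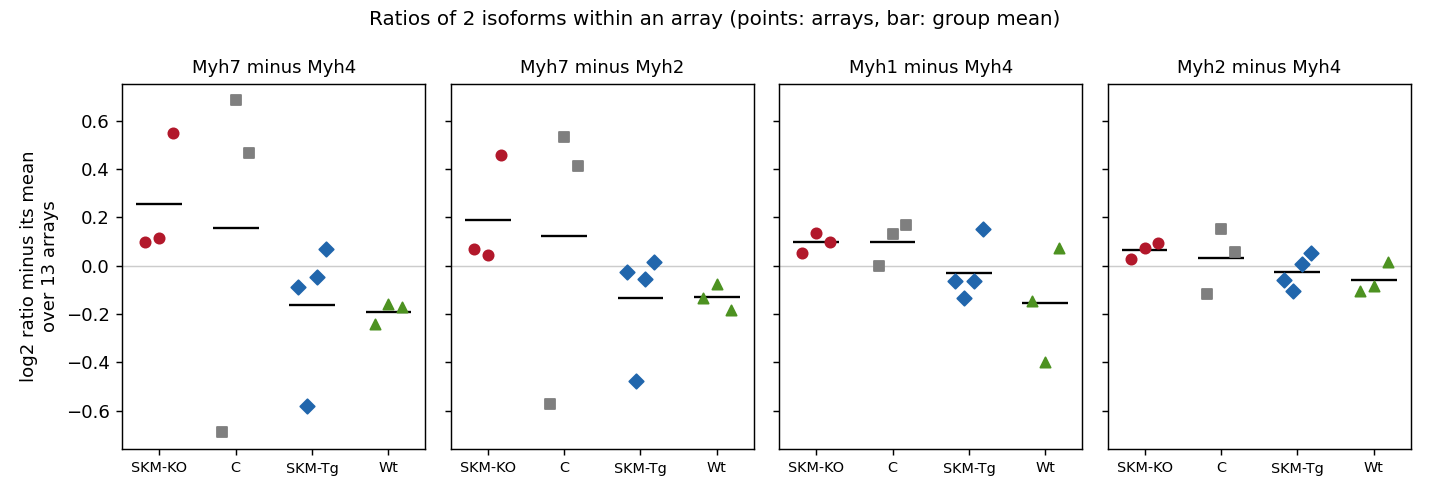
Each panel shows a log2 ratio of 2 myosin heavy chains, from the brightest probe set of each, minus its mean over 13 arrays. Points are arrays and bars are group means. The Myh7 ratios of C muscles run from -0.69 to 0.68 for Myh4 and enclose those of SKM-KO muscles, while Myh2 over Myh4 stays between -0.12 and 0.15. Myh2 and Myh4 are both read near the top of the scale, where differences can be compressed.

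The partners of the heavy chains were followed through lists of genes, each read by its brightest probe set, with the median over all 10411 genes at 0.0077 for SKM-KO minus C and -0.05 for SKM-Tg minus Wt. None of the 66 list genes measured was called in either comparison. The light chains (6 of 7 measured), which steady the neck of the myosin head, had medians of 0.15 for SKM-KO minus C and -0.11 for SKM-Tg minus Wt. Among them Myl10 differed by 0.37 (SE 0.14), and Myl2 by 0.21 (SE 0.22), in SKM-KO minus C. Myl10 also differed between the controls, by 0.47 (SE 0.14) in Wt minus C, where it was not called. The fast fibre list (8 of 9) had medians of 0.01 and -0.08, and all 8 were below 0 in SKM-Tg minus Wt, by -0.11 to -0.04. Between the controls, Wt minus C, all 8 were above 0, with a median of 0.08, against 0.06 over the 10411 genes. The slow fibre list had medians of 0.13 and -0.13, with 7 of 9 above 0 in SKM-KO minus C and 8 of 9 below 0 in SKM-Tg minus Wt. In Wt minus C 8 of 9 were also below 0, with a median of -0.17. The SKM-KO minus C differences of the slow list rest on C 1 as that of Myh7 does: without it, 0 of 9 were above 0, and their median was -0.20 (-0.31 to -0.05). Tnnc1 differed by 0.18, and by -0.20 without C 1, and Atp2a2 by 0.28, and by -0.10 without C 1. On the other side, the slow list's median deviation was -0.47 in SKM-Tg 2, against -0.13, -0.04 and -0.11 in SKM-Tg 1, 3 and 4. It was -0.23, 0.08 and 0.06 in the Wt muscles. The part of SKM-Tg 2 in the SKM-Tg minus Wt median of this list was not tested.

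The list of myosin folding and thick filament assembly (7 of 9) had medians of 0.04 and -0.04. In it Smyd1, which helps fold and place myosin, differed by -0.22 in SKM-Tg minus Wt (SE 0.08, adjusted p = 0.777 in limma). The fibre type regulators (19 of 23) had medians of 0.01 and -0.16. Among them Ppargc1b, a coactivator of mitochondrial genes, differed by -0.50 (SE 0.17) and Mef2d by -0.30 (SE 0.13) in SKM-Tg minus Wt. Maf differed by -0.48 (SE 0.24) in SKM-KO minus C. Between the controls, Wt minus C, Ppargc1b differed by 0.67 (SE 0.18). There, 9 of the 19 regulators had an unadjusted p under 0.05 in limma, against 17.4% of all probe sets, and 0 were called. The regeneration and denervation genes (17 of 18), which Myh3 and Myh8 accompany when fibres regrow, had medians of 0.01 and -0.22. They went both ways, with 9 above 0 and 8 below in SKM-KO minus C (-0.46 to 0.37). In SKM-Tg minus Wt, 7 were above 0 and 10 below (-0.56 to 0.50). Of these, Myod1, a myogenic master regulator, differed by -0.46 (SE 0.20) in SKM-KO minus C and by -0.54 (SE 0.18) in SKM-Tg minus Wt, and Pax7, the satellite cell factor, by -0.37 (SE 0.13) in SKM-Tg minus Wt. The SKM-Tg minus Wt differences of both had an adjusted p of 0.777 in limma. Tnnt2, of the same list, was higher in SKM-KO minus C, by 0.37 (SE 0.16). In Wt minus C, Myod1 differed by 0.60 (SE 0.20) and Pax7 by 0.35 (SE 0.14), and neither was called. The mean of Pax7, 4.35, was under the median of all probe sets (4.90), which 12 of the 17 genes passed. The other striated heavy chains of the list (Myh6, Myh7b, Myh13, Myh15 and Myh16) were not analysed here.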

How the data were processed

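Quadriceps RNA of 13 mice was measured on 1 Affymetrix array each. Per the labels' protocols, each mouse gave 25 ng of RNA for isothermal amplification and biotin labelling. The authors deposited log2 values made with RMA, per the submitters' processing notes, whose software version is not given in the sources used here. RMA corrects background, sets all arrays to 1 distribution and summarises probes, which can compress differences of very bright probe sets. Control probe sets (104 of 45141) were set aside. All other probe sets were fitted in limma 3.58.1 (R 4.3.3) with 1 mean per group, and SDs, ratios and correlations were computed in pandas 2.3.3. Each replicate is a mouse, numbered in accession order, and no batch is given. The code was tested on simulated data. An array has no read depth, and the number of arrays limits the precision.

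Genes were named by the array's annotation where a probe set had exactly 1 symbol (28898 probe sets), and a gene's brightest probe set stood for it in lists. Named genes are all members, up to 3 genes per list and comparison by lowest p, and the 5 genes most correlated with each member, with exceptions stated where they occur. The members and lists were chosen with earlier results of these data known. Alternatives were median centring, quantile normalization, a filter at the median mean, trended robust moderation, array weights, separate fits, 1 value per gene and leaving out each array.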

Additional observations from a re-analysis of the deposited data

Results flagged for a closer look

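SKM-Tg 2 had a Myh7 signal (1448553_PM_at) of 10.80, and the next SKM-Tg muscle had 11.20. The gap is 0.878 of the group's range, above the limit of 0.829 for 4 samples. It was the 1 such value among the 11 member probe sets tested in the SKM-Tg group. Chance gives about 1 in 20 for each probe set tested, not for the 11 together. Groups of 3 were not tested.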

How the results depend on the processing

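Of 873 alternative values of the members' differences, 821 kept direction and side of the threshold, 42 changed sign (34 of them on leaving out 1 array) and 10 became called. No paired analysis was possible because the labels give no replicate numbers shared between groups. The labels give no batch, and the number of arrays limits the precision.

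Members called stayed at 0 for SKM-KO minus C in every alternative, and for the other comparisons in all but these. Array weights called 3 for SKM-Tg minus Wt (8739 of all probe sets) and 5 for Wt minus C (20644), with 548 of all for the difference of the effects, but the weights did not converge (Wt 1 took a weight of 1007, the other arrays 0.108 to 1.65) and are not relied on. Leaving out 1 array gave 0 to 2 for Wt minus C, where all probe sets called ran from 0 to 8622. The 2 came without Wt 3 (Myh8 0.65 and Myh1 1427867_PM_at -0.28).

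All probe sets called for SKM-KO minus C were 1 under median centring, a separate fit and the brightest probe set per gene, and 1 to 3 leaving out 1 array. For SKM-Tg minus Wt they were 0 to 5 leaving out 1 array. For the difference of the effects they were 1 under median centring, the filter and trended robust moderation, and 1 to 2 leaving out 1 array. For Wt minus C they were 0 in a separate fit, 1 with the brightest probe set and 2 with the mean per gene.

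Quantile normalization turned Myh4 1427026_PM_at to -0.0055 (SKM-KO minus C), Myh4 1458368_PM_at to 0.048 (SKM-Tg minus Wt) and 0.029 (difference of the effects), and Myh1 1427520_PM_a_at to -0.0088 (Wt minus C). Median centring turned Myh1 1427867_PM_at to -0.0045 (difference of the effects). Weights turned it to -0.022 (SKM-Tg minus Wt) and -0.047 (difference of the effects), and Myh1 1427868_PM_x_at to 0.050 (Wt minus C).

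Leaving out 1 array, signs changed as follows. For SKM-KO minus C, Myh4 1458368_PM_at ran from -0.062 to 0.090, Myh4 1427026_PM_at from -0.0060 to 0.075, Myh7 from -0.25 to 0.38 and 1448554_PM_s_at from -0.27 to 0.55, Myh1 1452465_PM_at from -0.0018 to 0.12, Atp2a2 from -0.095 to 0.52 and Tnnc1 from -0.20 to 0.40. For SKM-Tg minus Wt, Myh4 1458368_PM_at ran from -0.055 to 0.035, Myh7 from -0.12 to 0.035, Myh1 1427867_PM_at from -0.092 to 0.12, Myh8 from -0.28 to 0.13, Hsp90aa1 from -0.81 to 0.11 and Trp53inp2 from -0.17 to 0.064. For the difference of the effects, Myh4 1458368_PM_at ran from -0.099 to 0.053, Myh1 1427867_PM_at from -0.12 to 0.096, Myh7 from -0.45 to 0.17 and 1448554_PM_s_at from -0.74 to 0.087. For Wt minus C, Myh1 1427520_PM_a_at ran from -0.037 to 0.067, 1427868_PM_x_at from -0.083 to 0.0090, Myh2 from -0.043 to 0.026, Myh4 1458368_PM_at from -0.017 to 0.14, Myh7 1448554_PM_s_at from -0.66 to 0.16 and Trp53inp2 from -0.032 to 0.20. The cause was not tested.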
